A study of Danio rerio with 3 samples.

Results

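The genes described here are 10 members of the activin and bone morphogenetic protein (Bmp) pathways of the zebrafish, taken by symbol from the 27771 endogenous genes of the files. They are the activin subunit genes inhbaa and inhbab, the follistatin genes fsta and fstb, the type I Bmp receptor genes bmpr1ba and bmpr1bb, the repulsive guidance molecule genes rgmb and rgmd, and the inhibitor of DNA binding genes id1 and id3. All 10 were present in the 3 single-cell libraries, described as retinal cells sorted for gfap:GFP from larvae at 9 days post-fertilization. Lws2-ablation came from larvae with the transgenes her4.1:dRFP, gfap:GFP and lws2:nfsb-mCherry, in which the lws2 promoter drives nitroreductase in red cones, and the library labelled Sws2-ablation from larvae with her4.1:dRFP, gfap:GFP and sws2:nfsb-mCherry, in which the sws2 promoter drives it in blue cones. No ablation came from larvae with her4.1:dRFP and gfap:GFP but without nitroreductase, an enzyme that turns metronidazole into a toxin. Larvae of all 3 lines received 10 mM metronidazole from 6 days post-fertilization for 48 h and were sampled 3 days after the start of injury. Each condition was 1 library of sorted cells, so a difference between conditions has no replicate and cannot be told apart from a difference between preparations.

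Activins are dimers of inhibin beta subunits and signal through type I and type II receptors to the Smad2 and Smad3 proteins. Bmps use other type I receptors, among them Bmpr1b, and the Smad1, Smad5 and Smad9 proteins. Follistatins bind activins outside the cell and keep them from their receptors, repulsive guidance molecules act as co-receptors for Bmps, and id genes, which encode repressors of basic helix-loop-helix factors, are direct targets of Bmp signalling. Müller glia are the radial glia of the retina, and in zebrafish they can return to the cell cycle after injury and produce new neurons.

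Levels are unique molecular identifiers (UMIs) of a gene summed over a class of cells, scaled to 1000000 UMIs of that class (CPM). Classes were gates on marker lists, applied to cells with at least 200 genes and 1000 UMIs after each cell was thinned to 1000 UMIs. Resting glia had 10 or more UMIs of 8 glia genes such as glula and rlbp1a, at most 1 UMI of 21 cycling genes and under 4 of each neuron list. Low-glial cells had 3 to 9 glia UMIs under the same limits, cycling cells had 4 or more cycling UMIs, and neurons had 4 or more UMIs of a photoreceptor, bipolar or amacrine, ganglion and horizontal cell list. Cycling cells also had under 4 UMIs of each neuron list, and neurons had at most 1 cycling UMI and under 10 glia UMIs. Resting glia numbered 2882 cells in Lws2-ablation, 2322 in the library labelled Sws2-ablation and 5568 in no ablation. Low-glial cells numbered 1016, 1116 and 471 in these libraries, cycling cells 1125, 601 and 230, and neurons 2368, 1048 and 840. Resting glia with a UMI of just 1 of rdh10a, efnb2a and fgf24, markers of regional Müller glia in the study, formed rdh10a glia (262 to 592 cells per library), efnb2a glia (144 to 202) and fgf24 glia (582 to 1822). The other resting glia numbered 1334 to 2952 cells per library. This split used unthinned counts, so membership depends on depth. Median depths were 3873.5 to 5363 UMIs in rdh10a glia, 3946 to 6130 in efnb2a glia and 4694.5 to 6875 in fgf24 glia. In each library rdh10a glia were shallower than fgf24 glia.

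The libraries held 7891 to 10520 cells with at least 200 genes and median depths of 4382 to 5884 UMIs per cell. EGFP stood at 731 CPM in Lws2-ablation, 2.19 CPM in the library labelled Sws2-ablation and 1062 CPM in no ablation. Cells with an EGFP UMI made up 50.9% in Lws2-ablation, 0.507% in the library labelled Sws2-ablation and 67.9% in no ablation. The values of the library labelled Sws2-ablation go against its gfap:GFP label, so calls, counts of pathway genes and likeness are also given without it. Between 17 and 29 cell barcodes were shared by a pair of libraries. Cells that passed no gate made up 23.8% of Lws2-ablation, 28.0% of the library labelled Sws2-ablation and 9.63% of no ablation. The medians that follow are of the gated lists themselves, so they describe the classes and do not test their separation. The median cell of resting glia had 20 to 33 glia UMIs and 0 of every neuron list, and the median cycling cell had 6 cycling UMIs and 1 glia UMI. A gate on a per-cell score marks a range and not a type: 144 to 273 cells per library had 9 or 10 glia UMIs, next to the cut, and 113 to 528 had 3 or 4 cycling UMIs. Of the 10 microglia markers, 5 or 6 were detected in resting glia, at a summed 99.3 to 168 CPM. Erythrocyte markers were at or near 0 in every class.

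**Figure D1:**
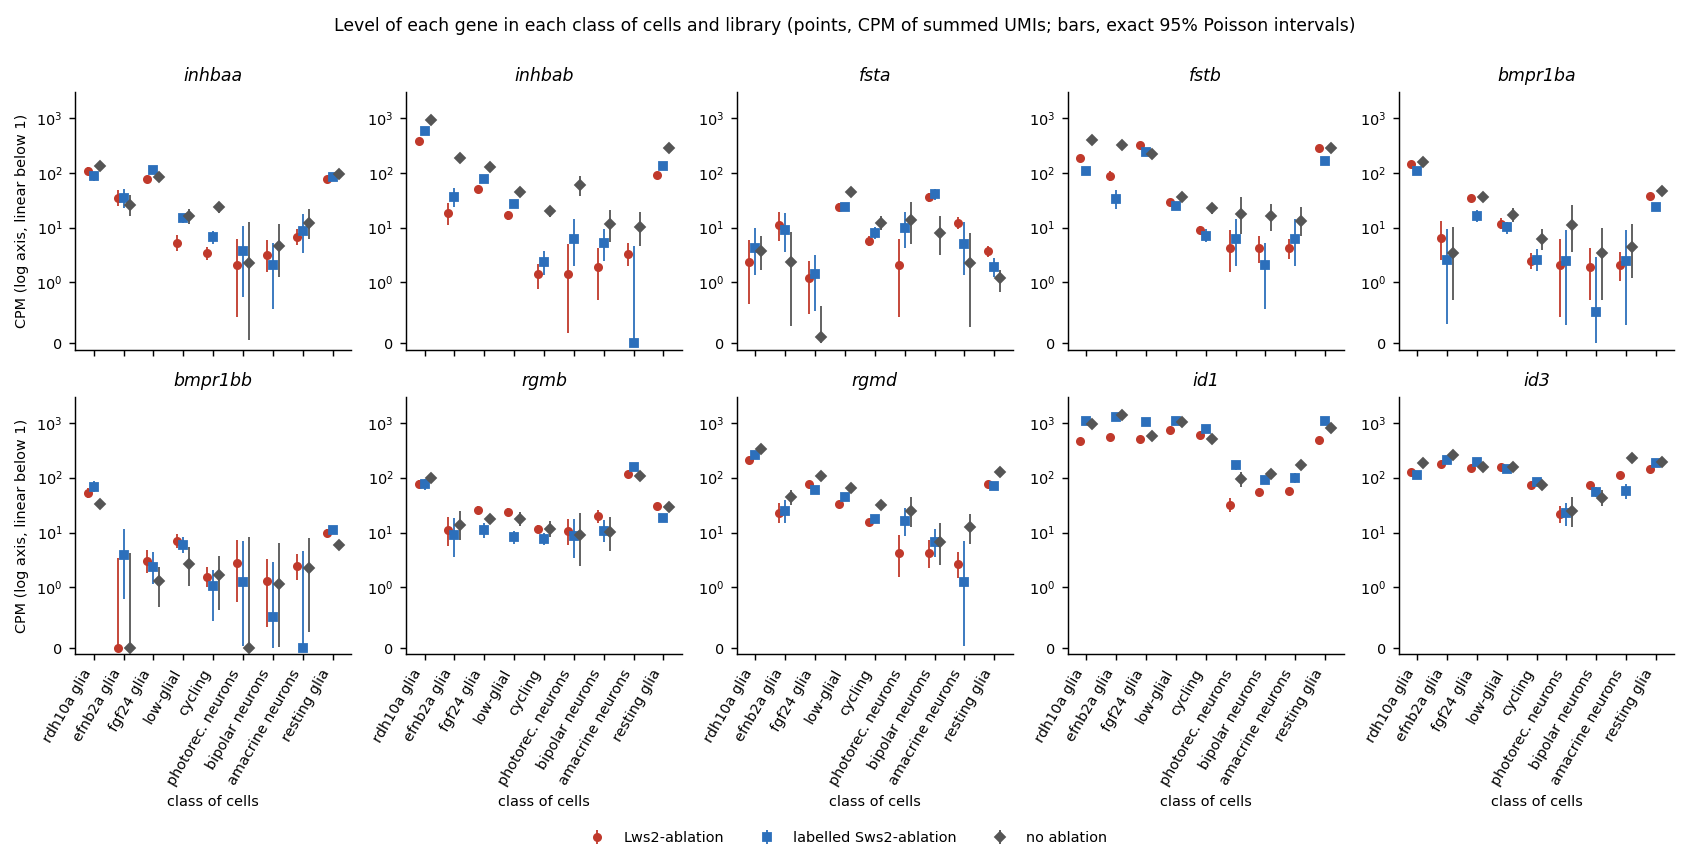
Level of each of the 10 genes (y axis, CPM on a log axis that is linear below 1) in 9 classes of cells (x axis) and 3 libraries (symbols), with exact 95% Poisson intervals as bars. In rdh10a glia inhbab lay between 386 and 927 CPM, above every other class of its own library, and fsta was at 23.9 to 45.4 CPM in low-glial cells, against 1.22 to 3.695 CPM in resting glia.

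inhbab and inhbaa, the zebrafish copies of the gene for the activin A subunit, were both glial, but they differed between groups of resting glia. In rdh10a glia, inhbab had 386 CPM in Lws2-ablation, 579 CPM in the library labelled Sws2-ablation and 927 CPM in no ablation. In fgf24 glia it had 51.4 CPM in Lws2-ablation, 76.6 CPM in the library labelled Sws2-ablation and 127 CPM in no ablation. The highest level in fgf24 glia was thus below the lowest in rdh10a glia, and edgeR's quasi-likelihood test on class sums with library as a block called the difference (log2 fold change 2.92 ± 0.20 SE, adjusted p = 6.28e-11, Benjamini-Hochberg over 8691 genes). Such p-values measure the spread of a class difference over the 3 libraries, which also differ in condition. A call needed an adjusted p under 0.05 and a 2-fold change, which 2.4% of these genes met in the higher and 2.62% in the lower direction. In efnb2a glia inhbab had 18.4 CPM in Lws2-ablation, 36.3 CPM in the library labelled Sws2-ablation and 183 CPM in no ablation, and this did not pass the test against fgf24 glia (log2 fold change -0.34 ± 0.24 SE, adjusted p = 0.397), where 2.5% of genes were called higher and 3.69% lower. It was below fgf24 glia in both ablation libraries and above it in no ablation. Without no ablation, inhbab was called lower in efnb2a glia (log2 fold change -1.33 by edgeR).

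inhbaa did not share this pattern. Its levels in rdh10a glia were 109 CPM in Lws2-ablation, 85.6 CPM in the library labelled Sws2-ablation and 131 CPM in no ablation, while fgf24 glia had 75.5 CPM in Lws2-ablation, 112 CPM in the library labelled Sws2-ablation and 84.6 CPM in no ablation. The ranges overlapped, and the test did not pass (log2 fold change 0.32 ± 0.15 SE, adjusted p = 0.194). In efnb2a glia inhbaa had 34.9 CPM in Lws2-ablation, 34.97 CPM in the library labelled Sws2-ablation and 25.5 CPM in no ablation, and there it fell relative to fgf24 glia (log2 fold change -1.52 ± 0.21 SE, adjusted p = 8.75e-06, edgeR).

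Both activin subunit genes were lower outside resting glia. In cycling cells, inhbaa stood at 3.39 CPM in Lws2-ablation, 6.65 CPM in the library labelled Sws2-ablation and 23.4 CPM in no ablation, while resting glia had 76.2 CPM in Lws2-ablation, 82.2 CPM in the library labelled Sws2-ablation and 94.96 CPM in no ablation. For inhbab the level in cycling cells was 1.43 CPM in Lws2-ablation, 2.35 CPM in the library labelled Sws2-ablation and 19.99 CPM in no ablation, while resting glia had 91.1 CPM in Lws2-ablation, 134 CPM in the library labelled Sws2-ablation and 282 CPM in no ablation. Both differences were called by edgeR over 13906 genes, with log2 fold changes of -3.04 ± 0.36 SE for inhbaa (adjusted p = 6.73e-06) and -4.72 ± 0.36 SE for inhbab (adjusted p = 1.04e-07). Of all genes, 20% were called higher and 25.7% lower in cycling cells, so a lower call was common. Without TMM scaling, which centres the typical gene, the median log2 fold change of all genes moved to -0.42 in cycling cells (-0.11 with it), to -0.14 in low-glial cells (0.01 with it) and to 0.29 in neurons (0.03 with it). The split then was 2052 genes higher and 4424 lower in cycling cells (2787 and 3567 with TMM) and 1140 higher and 1414 lower in low-glial cells (1415 and 1130 with TMM), and in neurons it was 3594 higher and 2716 lower (3013 and 3194 with TMM). Both were also called lower in low-glial cells, where 10.2% of genes were higher and 8.13% lower (log2 fold change -2.75 ± 0.36 SE, adjusted p = 0.000102 for inhbaa, and log2 fold change -2.30 ± 0.31 SE, adjusted p = 0.000127 for inhbab), and in neurons, where the shares were 21.7 and 23%. In neurons, inhbaa was at 4.78 to 7.61% and inhbab at 2.88 to 7.20% of its resting glia level, and the glial enzyme gene glula was at 4.27 to 7.004%. glula is a gate gene, so the gates themselves keep its share low. apoeb, which is in no gate, was at 3.00 to 4.99%. The source of these neuronal UMIs was not tested.

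fsta and fstb, which both encode secreted activin-binding proteins, ran in opposite directions. fstb was high in resting glia, with 280.0 CPM in Lws2-ablation, 167 CPM in the library labelled Sws2-ablation and 287 CPM in no ablation, and low in low-glial cells, with 29.5 CPM in Lws2-ablation, 24.8 CPM in the library labelled Sws2-ablation and 35.7 CPM in no ablation. Its level in cycling cells was 9.12 CPM in Lws2-ablation, 7.18 CPM in the library labelled Sws2-ablation and 22.6 CPM in no ablation. The falls were called in low-glial cells (log2 fold change -2.84 ± 0.24 SE, adjusted p = 8.45e-06), in cycling cells (log2 fold change -4.10 ± 0.26 SE, adjusted p = 2.07e-08) and in neurons (log2 fold change -5.52 ± 0.29 SE, adjusted p = 5.15e-09, edgeR). Between groups of resting glia fstb changed order with the library. In efnb2a glia it had 86.5 CPM in Lws2-ablation, 33.7 CPM in the library labelled Sws2-ablation and 315 CPM in no ablation, while fgf24 glia had 327 CPM in Lws2-ablation, 240.2 CPM in the library labelled Sws2-ablation and 223 CPM in no ablation. It was lower in efnb2a glia of both ablation libraries and higher in those of no ablation. edgeR called it lower over the 3 libraries (log2 fold change -1.24 ± 0.32 SE, adjusted p = 0.00889), and the call was lost without Lws2-ablation, without the library labelled Sws2-ablation, with stricter gates, without the library block and with DESeq2. In rdh10a glia fstb had 185 CPM in Lws2-ablation, 108 CPM in the library labelled Sws2-ablation and 399 CPM in no ablation, with no call against fgf24 glia (log2 fold change -0.43 ± 0.29 SE, adjusted p = 0.431).

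fsta was sparse in resting glia, at 3.695 CPM in Lws2-ablation, 1.897 CPM in the library labelled Sws2-ablation and 1.22 CPM in no ablation, from 71, 27 and 34 UMIs. Low-glial cells had 24.00 CPM in Lws2-ablation, 23.9 CPM in the library labelled Sws2-ablation and 45.4 CPM in no ablation. Every library was higher in low-glial cells than any library in resting glia, and fsta rose by a log2 fold change of 3.92 ± 0.48 SE (adjusted p = 6.52e-05, edgeR). It was also called higher in cycling cells, at 5.796 CPM in Lws2-ablation, 8.09 CPM in the library labelled Sws2-ablation and 12.3 CPM in no ablation (log2 fold change 2.16 ± 0.49 SE, adjusted p = 0.00179), and in neurons (log2 fold change 2.71 ± 0.48 SE, adjusted p = 0.000247). Within the neuron lists, fsta of bipolar-list neurons stood at 35.8 CPM in Lws2-ablation, 40.2 CPM in the library labelled Sws2-ablation and 7.99 CPM in no ablation, that of photoreceptor-list neurons at 2.101 CPM in Lws2-ablation, 9.89 CPM in the library labelled Sws2-ablation and 13.6 CPM in no ablation. Amacrine-list neurons had 12.2 CPM in Lws2-ablation, 4.94 CPM in the library labelled Sws2-ablation and 2.25 CPM in no ablation. The bipolar list was highest in both ablation libraries, but in no ablation its 7 UMIs gave a lower level than the 6 UMIs of the photoreceptor list. In the library labelled Sws2-ablation the share of cells with a fsta UMI after thinning to 1000 UMIs was close in the 3 lists (2.72% of bipolar-list, 2.05% of photoreceptor-list and 2.34% of amacrine-list neurons).

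Among low-glial cells thinned to 1000 UMIs, the share with a fsta UMI was 2.26% in Lws2-ablation, 2.42% in the library labelled Sws2-ablation and 4.03% in no ablation. In resting glia the share was 0.416% in Lws2-ablation, 0.129% in the library labelled Sws2-ablation and 0.0898% in no ablation. Without thinning, the shares in low-glial cells were 10.9% in Lws2-ablation, 8.602% in the library labelled Sws2-ablation and 13.6% in no ablation, and in resting glia 1.77% in Lws2-ablation, 0.861% in the library labelled Sws2-ablation and 0.467% in no ablation. Median depths were 4573 to 5904 UMIs in low-glial cells and 4552 to 6324 in resting glia, so the depths of the classes were close. Transcripts of other lists also differed between these classes. Cycling-list levels were 260 to 386 CPM in low-glial cells, against 93.6 to 147 CPM in resting glia, and retinal pigment epithelium levels were 7.22 to 153 CPM in low-glial cells, against 4.78 to 8.56 CPM in resting glia, with the highest in no ablation. Their part in the fsta difference was not tested.

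bmpr1ba and bmpr1bb, both copies of the type I receptor gene BMPR1B, were highest in rdh10a glia. In rdh10a glia, bmpr1ba had 144 CPM in Lws2-ablation, 109 CPM in the library labelled Sws2-ablation and 156 CPM in no ablation, while fgf24 glia had 34.1 CPM in Lws2-ablation, 16.5 CPM in the library labelled Sws2-ablation and 36.5 CPM in no ablation (log2 fold change 2.26 ± 0.13 SE, adjusted p = 4.49e-12, edgeR). In efnb2a glia its level was 6.44 CPM in Lws2-ablation, 2.59 CPM in the library labelled Sws2-ablation and 3.48 CPM in no ablation, and it fell relative to fgf24 glia (log2 fold change -2.77 ± 0.31 SE, adjusted p = 4.19e-07). The 3 groups of glia were therefore ordered as rdh10a, fgf24 and efnb2a glia in every library, with both neighbouring steps called.

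bmpr1bb was low in fgf24 and efnb2a glia. Resting glia outside the 3 groups had more, with 7.89 CPM in Lws2-ablation, 7.54 CPM in the library labelled Sws2-ablation and 4.49 CPM in no ablation. In rdh10a glia it had 52.8 CPM in Lws2-ablation, 68.6 CPM in the library labelled Sws2-ablation and 33.2 CPM in no ablation, while fgf24 glia had 3.05 CPM in Lws2-ablation, 2.39 CPM in the library labelled Sws2-ablation and 1.33 CPM in no ablation, the largest log2 fold change of a member in this contrast (log2 fold change 4.49 ± 0.25 SE, adjusted p = 2.82e-12, edgeR). In efnb2a glia it had 0 UMIs in Lws2-ablation, which allows up to 2.76 CPM, 3 UMIs in the library labelled Sws2-ablation and 0 UMIs in no ablation, which allows up to 3.48 CPM. A difference from fgf24 glia was not detectable at this depth. Among rdh10a glia thinned to 1000 UMIs, the share with a bmpr1bb UMI was 5.47% in Lws2-ablation, 8.02% in the library labelled Sws2-ablation and 3.21% in no ablation. In fgf24 glia the shares were 0.459% in Lws2-ablation, 0.172% in the library labelled Sws2-ablation and 0.2195% in no ablation.

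Both receptor genes were lower in cycling cells than in resting glia. In cycling cells, bmpr1ba had 2.47 CPM in Lws2-ablation, 2.61 CPM in the library labelled Sws2-ablation and 6.28 CPM in no ablation, while resting glia had 37.4 CPM in Lws2-ablation, 23.6 CPM in the library labelled Sws2-ablation and 46.5 CPM in no ablation (log2 fold change -3.08 ± 0.21 SE, adjusted p = 3.84e-08, edgeR). For bmpr1bb the levels in cycling cells were 1.56 CPM in Lws2-ablation, 1.04 CPM in the library labelled Sws2-ablation and 1.71 CPM in no ablation, while resting glia had 9.94 CPM in Lws2-ablation, 10.9 CPM in the library labelled Sws2-ablation and 5.801 CPM in no ablation (log2 fold change -2.41 ± 0.32 SE, adjusted p = 2.13e-05). In low-glial cells bmpr1ba was called lower (log2 fold change -1.28 ± 0.18 SE, adjusted p = 0.000204), while bmpr1bb, with 6.94 CPM in Lws2-ablation, 6.02 CPM in the library labelled Sws2-ablation and 2.63 CPM in no ablation, was not (log2 fold change -0.58 ± 0.28 SE, adjusted p = 0.134). The difference between the 2 genes was not tested.

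rgmb and rgmd, whose family members anchor to the cell surface and bind Bmps, were both higher in rdh10a glia. rgmd had, in rdh10a glia, 213 CPM in Lws2-ablation, 262 CPM in the library labelled Sws2-ablation and 332 CPM in no ablation, while fgf24 glia had 77.1 CPM in Lws2-ablation, 60.2 CPM in the library labelled Sws2-ablation and 108 CPM in no ablation (log2 fold change 1.74 ± 0.12 SE, adjusted p = 7.78e-11, edgeR). In efnb2a glia it fell to 22.99 CPM in Lws2-ablation, 24.6 CPM in the library labelled Sws2-ablation and 44.04 CPM in no ablation (log2 fold change -1.48 ± 0.17 SE, adjusted p = 8.9e-07). Like bmpr1ba, rgmd kept the order rdh10a, fgf24 and efnb2a glia in each library. Its call in efnb2a glia was lost without the library block (adjusted p = 0.0617, edgeR).

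In rdh10a glia, rgmb had 76.3 CPM in Lws2-ablation, 75.4 CPM in the library labelled Sws2-ablation and 100.1 CPM in no ablation, while fgf24 glia had 25.9 CPM in Lws2-ablation, 10.98 CPM in the library labelled Sws2-ablation and 17.7 CPM in no ablation (log2 fold change 2.25 ± 0.17 SE, adjusted p = 4.1e-10, edgeR). It was also found in neurons. Amacrine-list neurons had 116 CPM in Lws2-ablation, 157 CPM in the library labelled Sws2-ablation and 107 CPM in no ablation, whereas bipolar-list neurons had 19.7 CPM in Lws2-ablation, 10.8 CPM in the library labelled Sws2-ablation and 10.3 CPM in no ablation. Over all neurons rgmb was not called against resting glia because its log2 fold change of 0.83 ± 0.19 SE stayed under 2-fold (adjusted p = 0.00163, edgeR). The share of amacrine-list cells among neurons differed between libraries (1067 cells in Lws2-ablation, 128 in the library labelled Sws2-ablation and 231 in no ablation). In cycling cells rgmb had 11.8 CPM in Lws2-ablation, 7.697 CPM in the library labelled Sws2-ablation and 11.7 CPM in no ablation, called lower than in resting glia at a change near 2-fold (log2 fold change -1.03 ± 0.20 SE, adjusted p = 0.000562). That call was lost under looser gates, stricter gates, without no ablation and without the 5% of cells with most UMIs.

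The 5 members called higher in rdh10a glia (inhbab, bmpr1ba, bmpr1bb, rgmb and rgmd) made up 5 of the 9 members tested, and none was called lower, beside 2.4% of all genes higher and 2.62% lower. The study had named inhbab, bmpr1ba, rgmd and rgmb for rdh10a glia from these same libraries and shown the expression of both bmpr1b copies, so the direction of these genes is not independent evidence. Outside these libraries the study stained Bmpr1ba/b protein and saw it in neurons and in ventral and central Müller glia. Dorsal Müller glia had minimal labelling. All 5 calls held when any 1 library was left out. Without the library block the inhbab call was lost (adjusted p = 0.106, edgeR). At an unadjusted p under 0.05, 6 members were higher and 0 lower by edgeR, and DESeq2 called 5 higher and 0 lower. In efnb2a glia edgeR called 4 of 9 members lower (inhbaa, fstb, bmpr1ba and rgmd) and 0 higher, beside 3.69% of all genes lower and 2.5% higher, with 5 lower and 2 higher at an unadjusted p under 0.05, and DESeq2 called 3 lower and 1 higher, fsta. The low-count filter of edgeR had left fsta out in these groups. bmpr1bb passed it through its 33.2 to 68.6 CPM in rdh10a glia, against 1.33 to 3.05 CPM in fgf24 and 0 to 3.89 CPM in efnb2a glia. The filter thus favoured a higher call of bmpr1bb and its place among the 9 members tested. With no filter bmpr1bb was still called, and 6 of 10 members were, beside 282 genes higher and 349 lower of 20286. fsta had 11.04 CPM in Lws2-ablation, 9.07 CPM in the library labelled Sws2-ablation and 2.32 CPM in no ablation for efnb2a glia, 2.35 CPM in Lws2-ablation, 4.24 CPM in the library labelled Sws2-ablation and 3.74 CPM in no ablation for rdh10a glia and 1.19 CPM in Lws2-ablation, 1.43 CPM in the library labelled Sws2-ablation and 0.1104 CPM in no ablation for fgf24 glia. With no filter, edgeR called it higher in efnb2a glia (log2 fold change 3.02 ± 0.58 SE, adjusted p = 7.25e-06) and in rdh10a glia (log2 fold change 2.14 ± 0.59 SE, adjusted p = 0.00601) than in fgf24 glia. The level in fgf24 glia of no ablation was that of 1 UMI. Without no ablation fsta was not called by edgeR in rdh10a glia (log2 fold change 1.25, adjusted p = 0.425) but was in efnb2a glia (log2 fold change 2.87, adjusted p = 0.00168), and DESeq2 did not call it in rdh10a glia (adjusted p = 0.0522). Leaving out the library labelled Sws2-ablation ended 1 member call over all 5 contrasts, that of fstb in efnb2a glia, and brought none. Glia-list transcripts were close in rdh10a glia (21446 to 31759 CPM) and fgf24 glia (23156 to 35779 CPM) but lower in efnb2a glia (16597 to 27718 CPM), and their part in the efnb2a differences was not tested.

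**Figure D2:**
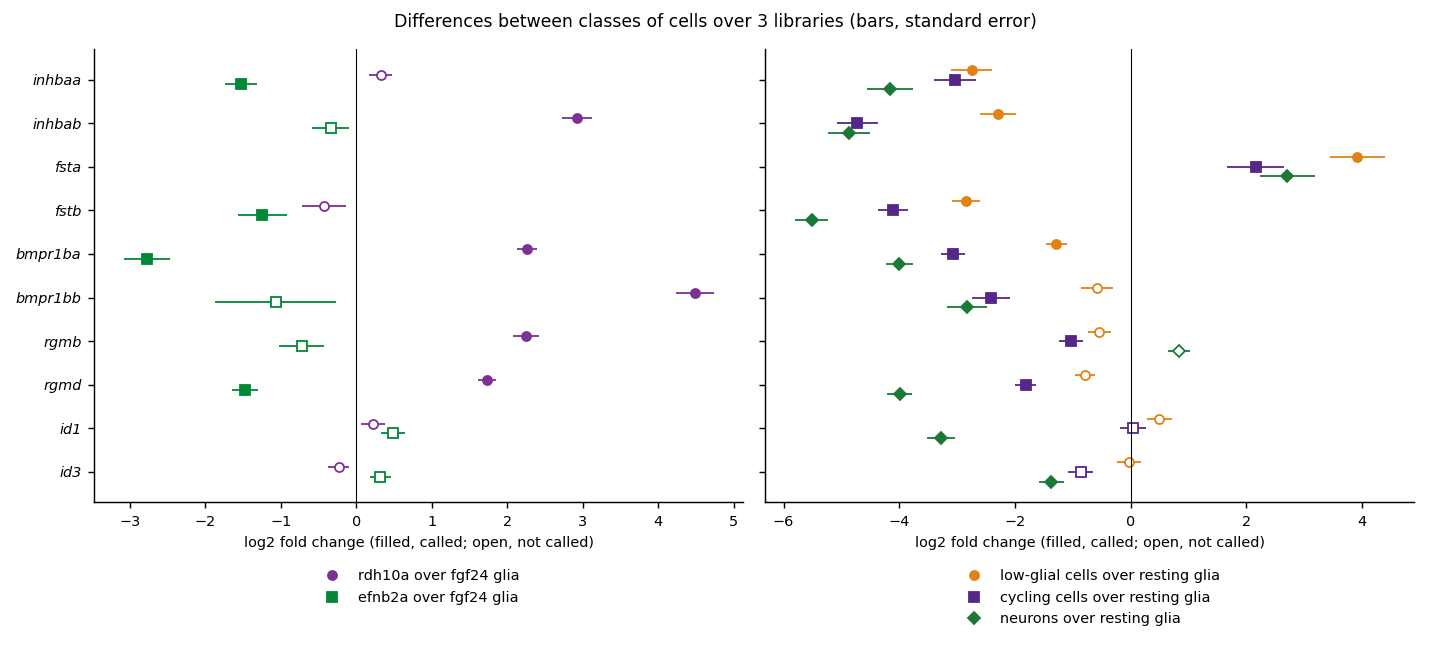
Log2 fold change (x axis) of each gene (y axis) between groups of resting glia (left) and between classes of cells (right), over 3 libraries with library as a block; bars are standard errors, filled symbols were called and open ones were not. The symbols of inhbab, bmpr1ba, bmpr1bb, rgmb and rgmd in rdh10a glia lie at 1.74 to 4.49, and fsta is the one gene called higher in low-glial cells, cycling cells and neurons.

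id1 and id3, which encode helix-loop-helix proteins that keep proneural factors from binding DNA, were detected in every group of glia and in cycling cells. In cycling cells, id1 had 589 CPM in Lws2-ablation, 767 CPM in the library labelled Sws2-ablation and 498 CPM in no ablation, while resting glia had 476 CPM in Lws2-ablation, 1081 CPM in the library labelled Sws2-ablation and 794 CPM in no ablation. Its log2 fold change was near 0 (log2 fold change 0.04 ± 0.22 SE, adjusted p = 0.883, edgeR) and turned negative without TMM scaling, so no direction is given. An interval of 2 standard errors around it spans both directions. In low-glial cells id1 had 745 CPM in Lws2-ablation, 1094 CPM in the library labelled Sws2-ablation and 1041 CPM in no ablation, higher than resting glia of the same library in each case, yet not called (log2 fold change 0.50 ± 0.22 SE, adjusted p = 0.11). Neurons had 53.8 CPM in Lws2-ablation, 110.3 CPM in the library labelled Sws2-ablation and 132 CPM in no ablation, a called fall (log2 fold change -3.28 ± 0.24 SE, adjusted p = 7.24e-08).

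In cycling cells, id3 had 73.00 CPM in Lws2-ablation, 82.98 CPM in the library labelled Sws2-ablation and 73.95 CPM in no ablation, while resting glia had 147 CPM in Lws2-ablation, 181 CPM in the library labelled Sws2-ablation and 189.9 CPM in no ablation. Each cycling value lay below each resting value, but the change stayed under 2-fold and was not called (log2 fold change -0.86 ± 0.21 SE, adjusted p = 0.00315, edgeR). Without TMM scaling and with stricter gates it was called lower. Among neurons, id3 varied by list, with 109.6 CPM in Lws2-ablation, 56.9 CPM in the library labelled Sws2-ablation and 229 CPM in no ablation for amacrine-list neurons. Photoreceptor-list neurons had 21.7 CPM in Lws2-ablation, 22.3 CPM in the library labelled Sws2-ablation and 24.9 CPM in no ablation. Neither id gene differed between rdh10a and fgf24 glia by the test (log2 fold change 0.22 ± 0.16 SE, adjusted p = 0.447 for id1, and log2 fold change -0.23 ± 0.14 SE, adjusted p = 0.355 for id3), which does not show that they were alike. In efnb2a glia id1 was higher than in fgf24 glia by a log2 fold change of 0.49 ± 0.16 SE (adjusted p = 0.0369, edgeR), under the 2-fold limit of a call.

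Cells with no cycling or neuronal transcripts above the limits were also divided by their glia-list UMIs per 1000, into 0 to 2, 3 to 9, 10 to 19, 20 to 39 and 40 or more. These divisions were chosen after the data were seen and are a description. fstb climbed over the divisions in all 3 libraries, with 4.48 to 4.98 CPM in the lowest and 330.1 to 446 CPM in the highest. inhbaa had the same order (0.988 to 2.99 CPM and 112 to 153 CPM), and rgmd spanned a smaller range (13.1 to 30.2 CPM and 121 to 145 CPM).

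fsta ran the other way. At 0 to 2 glia UMIs it had 20.7 CPM in Lws2-ablation, 37.6 CPM in the library labelled Sws2-ablation and 47.8 CPM in no ablation. At 20 to 39 its levels were 1.93 CPM in Lws2-ablation, 0.585 CPM in the library labelled Sws2-ablation and 0.786 CPM in no ablation, and at 40 or more it had 0, 0 and 1 UMIs in Lws2-ablation, the library labelled Sws2-ablation and no ablation. Most of its UMIs among these cells thus lay in cells with few glial transcripts. igfbp5b, a gene the study used as a marker of immature cells, had 146 to 229.7 CPM at 3 to 9 glia UMIs and 8.48 to 20.7 CPM at 40 or more. It is 1 of 7 genes of a transitional list with her4.1, her12, metrn, tjp2b, notch3 and fabp7a. The summed list went the other way, at 36982 to 39011 CPM in low-glial cells and 44301 to 51257 CPM in resting glia. The sum does not show which way her4.1 or another single gene of the list went. Whether low-glial cells were immature was not tested. id1 was highest neither at the bottom nor, in 2 of 3 libraries, at the top: at 3 to 9 glia UMIs it had 745 CPM in Lws2-ablation, 1094 CPM in the library labelled Sws2-ablation and 1041 CPM in no ablation, and at 40 or more 460.3 CPM in Lws2-ablation, 1654 CPM in the library labelled Sws2-ablation and 873 CPM in no ablation.

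**Figure D3:**
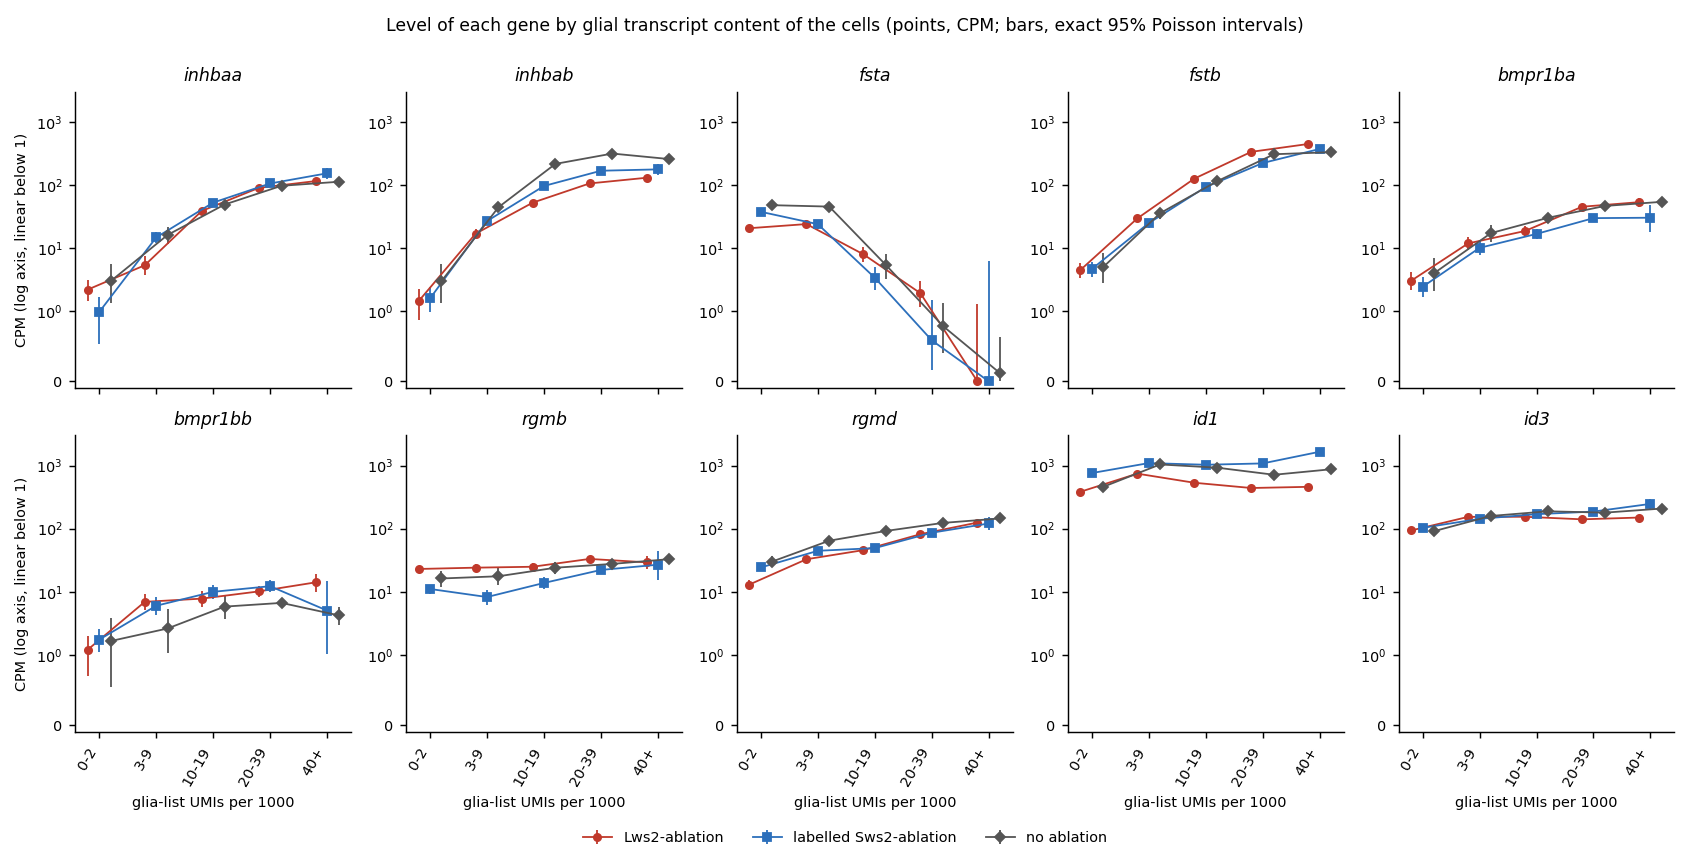
Level of each gene (y axis, CPM on a log axis that is linear below 1) by glia-list UMIs per 1000 of the cells (x axis), for 3 libraries (lines), with exact 95% Poisson intervals as bars. fstb, inhbaa, bmpr1ba and rgmd are higher in the 40 or more division than in the 0 to 2 division in each library, fsta falls to 0 or 1 UMI, and inhbab of no ablation lies above both ablation libraries from 3 UMIs upward.

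The ratios below compare 1 library of each condition and share the no ablation library. Their 95% intervals cover counting error only, and no test was made. Past 2-fold means a CPM ratio of at least 2 or at most 0.5, among genes with 20 or more UMIs in the sums compared. inhbab was lower after ablation in resting glia. It had 91.1 CPM in Lws2-ablation, 134 CPM in the library labelled Sws2-ablation and 282 CPM in no ablation, a ratio to no ablation of 0.323 (95% interval 0.306 to 0.34) for Lws2-ablation, while the library labelled Sws2-ablation was at 0.475 (95% interval 0.451 to 0.499). For Lws2-ablation, fsta was at least 2-fold higher (ratio 3.04 (95% interval 1.99 to 4.71), on 71 UMIs in Lws2-ablation and 34 in no ablation) and inhbab at least 2-fold lower, beside 18.3% of all genes higher and 4.03% lower. At 10 to 19 glia UMIs this fsta ratio was 1.495 (95% interval 0.885 to 2.61), on 52 and 21 UMIs. That division held 955 of 2882 resting glia in Lws2-ablation and 782 of 5568 in no ablation. At 20 to 39 the fsta ratio was 2.45 (95% interval 1.13 to 5.54), on 19 and 12 UMIs. For the library labelled Sws2-ablation inhbab was at least 2-fold lower, beside 15.2% of all genes higher and 8.53% lower. The median gene had a ratio of 1.19 in Lws2-ablation, with 1.07 in the library labelled Sws2-ablation. With TMM scaling the median became 0.960 for Lws2-ablation, where 1732 genes were then at least 2-fold higher and 1193 lower (2615 and 576 on totals), and 0.935 for the library labelled Sws2-ablation, where 1650 were higher and 1656 lower (2103 and 1180 on totals). The inhbab ratio then was 0.261 for Lws2-ablation, while the library labelled Sws2-ablation was at 0.417. On that scale id1 of Lws2-ablation (0.484), rgmd of both ablation libraries (0.488 for Lws2-ablation) and bmpr1ba of the library labelled Sws2-ablation (0.445) were also past 2-fold.

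The lower inhbab level was present within each group of resting glia. For Lws2-ablation the ratio was 0.417 in rdh10a glia, 0.1004 in efnb2a glia and 0.404 in fgf24 glia. For the library labelled Sws2-ablation it was 0.624, 0.198 and 0.602 in the same groups. The glia-list level also moved between libraries, at 26208 CPM in Lws2-ablation, 21288 CPM in the library labelled Sws2-ablation and 33669 CPM in no ablation. Divisions by glia UMIs bound this level in each cell, but the level within a division was not compared between libraries. At 10 to 19 glia UMIs the inhbab ratio was 0.243 for Lws2-ablation, while the library labelled Sws2-ablation was at 0.447. At 20 to 39 it was 0.336 for Lws2-ablation, while the library labelled Sws2-ablation was at 0.534. At 40 or more it was 0.506 for Lws2-ablation, while the library labelled Sws2-ablation was at 0.687, so neither was past 2-fold there.

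rgmd was also lower in both ablation libraries, at 75.9 CPM in Lws2-ablation, 70.1 CPM in the library labelled Sws2-ablation and 126 CPM in no ablation, with a ratio of 0.603 (95% interval 0.567 to 0.641) for Lws2-ablation, while the library labelled Sws2-ablation was at 0.557 (95% interval 0.518 to 0.597). At 10 to 19, 20 to 39 and 40 or more glia UMIs the rgmd ratio of Lws2-ablation was 0.496, 0.662 and 0.861. For the library labelled Sws2-ablation it was 0.534, 0.699 and 0.833, the last with a 95% interval of 0.647 to 1.06. The part of glial content in the rgmd ratios was not tested. bmpr1bb was higher in both ablation libraries, with a ratio of 1.71 (95% interval 1.38 to 2.13) for Lws2-ablation, while the library labelled Sws2-ablation was at 1.88 (95% interval 1.5 to 2.35). The same held for bmpr1bb within rdh10a glia (1.59 in Lws2-ablation, with 2.06 in the library labelled Sws2-ablation). bmpr1ba, the other copy, had a ratio of 0.803 (95% interval 0.732 to 0.88) for Lws2-ablation, while the library labelled Sws2-ablation was at 0.507 (95% interval 0.448 to 0.572), so over all resting glia the receptor copies lay on opposite sides of 1. Within groups the bmpr1ba ratio of Lws2-ablation was 0.926 (95% interval 0.786 to 1.09) in rdh10a glia and 0.932 (95% interval 0.779 to 1.11) in fgf24 glia, and both intervals include 1. Its ratio in the library labelled Sws2-ablation was 0.702 in rdh10a glia and 0.451 in fgf24 glia.

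Over all resting glia, id1 lay on opposite sides of 1 in the ablation libraries. Its ratio was 0.599 (95% interval 0.584 to 0.614) for Lws2-ablation, while the library labelled Sws2-ablation was at 1.36 (95% interval 1.33 to 1.39). In efnb2a glia both ratios were below 1, at 0.389 (95% interval 0.352 to 0.43) for Lws2-ablation, while the library labelled Sws2-ablation was at 0.899 (95% interval 0.825 to 0.979). In rdh10a glia the ratio was 0.491 for Lws2-ablation, while the library labelled Sws2-ablation was at 1.11, and in fgf24 glia it was 0.868 for Lws2-ablation, while the library labelled Sws2-ablation was at 1.799. In cycling cells both ratios were above 1, at 1.18 (95% interval 1.12 to 1.25) for Lws2-ablation, while the library labelled Sws2-ablation was at 1.54 (95% interval 1.46 to 1.62). id3 moved less, with a resting glia ratio of 0.773 (95% interval 0.738 to 0.809) for Lws2-ablation, while the library labelled Sws2-ablation was at 0.954 (95% interval 0.91 to 1). In resting glia the fstb ratio was 0.976 (95% interval 0.943 to 1.01) for Lws2-ablation, while the library labelled Sws2-ablation was at 0.581 (95% interval 0.555 to 0.608). Within groups fstb went both ways. In fgf24 glia, which held the most cells of the 3 groups, its ratio was 1.47 (95% interval 1.38 to 1.56) for Lws2-ablation, while the library labelled Sws2-ablation was at 1.08 (95% interval 0.999 to 1.16). In efnb2a glia it was 0.274 for Lws2-ablation, while the library labelled Sws2-ablation was at 0.107, and in rdh10a glia it was 0.464 for Lws2-ablation, while the library labelled Sws2-ablation was at 0.2695. The median glia UMIs were 15, 16 and 27 in efnb2a glia of Lws2-ablation, the library labelled Sws2-ablation and no ablation. They were 26, 21 and 31 in rdh10a glia and 31, 22.5 and 36 in fgf24 glia. At 10 to 19, 20 to 39 and 40 or more glia UMIs, the fstb ratio of Lws2-ablation was 1.101, 1.09 and 1.35. For the library labelled Sws2-ablation it was 0.809, 0.725 and 1.13. These divisions pool the groups, and the part of glial content in the group ratios was not tested.

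Low-glial cells showed lower inhbab in both ablation libraries, with a ratio of 0.382 (95% interval 0.293 to 0.497) for Lws2-ablation, while the library labelled Sws2-ablation was at 0.604 (95% interval 0.476 to 0.769). Their summed glia-list levels, which the gate bounds, were close, at 5658, 5912 and 5752 CPM in Lws2-ablation, the library labelled Sws2-ablation and no ablation. Single genes of the list went both ways. In the same order glula had 910, 921 and 1539 CPM, and rlbp1a had 1772, 1422 and 1349 CPM. The part of glial content in the ratios of low-glial cells was not tested. fsta had a ratio of 0.528 (95% interval 0.416 to 0.674) for Lws2-ablation, while the library labelled Sws2-ablation was at 0.527 (95% interval 0.413 to 0.673). The inhbaa ratio was 0.331 (95% interval 0.208 to 0.527) for Lws2-ablation, while the library labelled Sws2-ablation was at 0.913 (95% interval 0.632 to 1.34). For rgmb it was 1.37 (95% interval 0.985 to 1.93) for Lws2-ablation, while the library labelled Sws2-ablation was at 0.469 (95% interval 0.312 to 0.707). The bmpr1bb ratio was 2.64 (95% interval 1.19 to 6.92) for Lws2-ablation, while the library labelled Sws2-ablation was at 2.29 (95% interval 1.01 to 6.06), and rests on 7 UMIs in no ablation. In all, 1 member was at least 2-fold higher and 2 were at least 2-fold lower for Lws2-ablation, beside 12.3% and 4.26% of all genes. For the library labelled Sws2-ablation 1 was higher and 1 lower, beside 9.06% and 8.38%.

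In cycling cells 6 of 10 members were at least 2-fold lower for Lws2-ablation (inhbaa, inhbab, fsta, fstb, bmpr1ba and rgmd) and 4 of 9 for the library labelled Sws2-ablation (inhbaa, inhbab, fstb and bmpr1ba), and none was 2-fold higher. The shares of all genes were 5.07% lower and 9.5% higher for Lws2-ablation, and 7.67% lower and 6.65% higher for the library labelled Sws2-ablation. For Lws2-ablation 4 members were at least 2-fold lower with TMM scaling, and 4 with looser gates. TMM scaling there changed 1096 higher and 585 lower genes to 1275 and 431. For the library labelled Sws2-ablation, TMM scaling changed 681 higher and 785 lower genes to 863 and 514, and 4 members stayed lower. The member counts rest on few UMIs. inhbab had 22 UMIs in Lws2-ablation, 18 in the library labelled Sws2-ablation and 70 in no ablation. Glia-list transcripts of the cycling cells moved in the same direction, at 1232, 1024 and 2669 CPM in these libraries, and their part in the ratios was not tested. In cycling cells with at most 2 glia UMIs, inhbab had 0.958 CPM in Lws2-ablation, 0.879 CPM in the library labelled Sws2-ablation and 5.52 CPM in no ablation, and fstb had 5.75 CPM in Lws2-ablation, 6.15 CPM in the library labelled Sws2-ablation and 3.15 CPM in no ablation, with no lower level of fstb in the ablation libraries. In the same order inhbaa had 1.03, 5.13 and 7.09 CPM there, and bmpr1ba 1.92, 2.34 and 2.76 CPM. fsta had 5.53, 7.76 and 15.0 CPM, and rgmd 14.2, 16.1 and 27.6 CPM. Thus bmpr1ba and rgmd were under 2-fold lower in both ablation libraries, and inhbaa in the library labelled Sws2-ablation. Without the 5% of cells with most UMIs the fstb ratio in cycling cells was 1.33 in Lws2-ablation, with 1.47 in the library labelled Sws2-ablation.

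**Figure D4:**
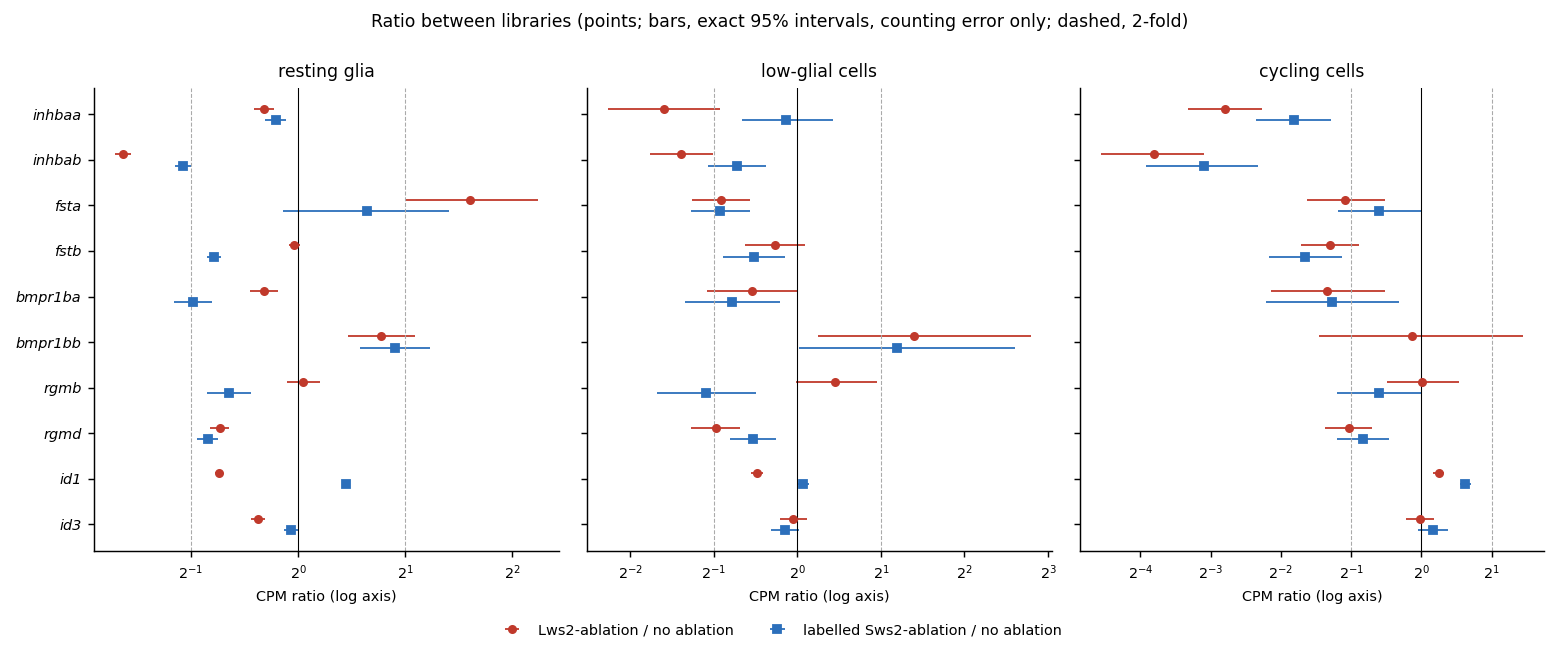
CPM ratio of each gene (y axis) between an ablation library and no ablation (x axis, log axis) in 3 classes of cells, with exact 95% intervals that cover counting error only; dashed lines mark 2-fold. In resting glia inhbab lies at 0.323 and 0.475, bmpr1bb at 1.71 and 1.88, and id1 on opposite sides of 1.

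In total 5 lists of ligands, receptors, Smads, inhibitors and target genes outside the 10 members were scored in the same fits. smad6a, smad6b, smad7 and the bambi genes stand on more than 1 of them and are counted in each. In rdh10a glia against fgf24 glia, edgeR called 2 higher and 1 lower of 5 tested ligands (median log2 fold change 0.41), 0 higher and 0 lower of 11 tested receptors and co-receptors (median log2 fold change 0.13), 0 higher and 2 lower of 8 tested Smads (median log2 fold change -0.10), 1 higher and 0 lower of 12 tested inhibitors and binding proteins (median log2 fold change 0.14) and 3 higher and 2 lower of 15 tested target genes (median log2 fold change 0.05), beside a median of 0.01 over all genes. The ligand genes bmp4 (log2 fold change 3.10 ± 0.43 SE) and gdf6a (log2 fold change 1.17 ± 0.33 SE) were higher and bmp2b lower (log2 fold change -1.57 ± 0.21 SE), with the chordin-like gene chrdl2 also higher (log2 fold change 3.33 ± 0.32 SE) and the inhibitory Smad gene smad6a lower (log2 fold change -1.46 ± 0.17 SE). Of the targets, ccn2a had the largest rise (log2 fold change 2.87 ± 0.22 SE). vax2, a ventral eye gene, was higher (log2 fold change 2.07 ± 0.26 SE), and tbx2a, from a gene family with dorsal eye expression, was lower (log2 fold change -1.24 ± 0.12 SE). bmp4 and gdf6a, also higher here, are ligand genes of the dorsal eye, so genes with a dorsal label went both ways. Both rises rest on low levels. bmp4 had 3.39 to 11.2 CPM in rdh10a glia, against 0.478 to 1.104 CPM in fgf24 glia. gdf6a had 2.93 to 14.1 CPM, against 1.696 to 6.21 CPM. The study also saw rdh10a in a small part of the dorsal Müller glia. Their part in these rises was not tested. tbx2b and tbx5a of the target list were not among the calls. Over all genes of this contrast edgeR called 2.4% higher and 2.62% lower. At an unadjusted p under 0.05 edgeR had 2 of these receptors higher and 1 lower, and DESeq2 called 0. By DESeq2, which also tested genes that the filter had left out, the higher and lower calls were 1 and 3 of 9 ligands, 0 and 0 of 14 receptors, 0 and 1 of 9 Smads, 1 and 0 of 15 inhibitors and 2 and 2 of 18 targets. Without the library labelled Sws2-ablation they were 2 and 2 of 6 ligands, 1 and 0 of 11 receptors, 0 and 2 of 8 Smads, 1 and 0 of 14 inhibitors and 3 and 2 of 17 targets, by edgeR. Over all genes the higher and lower calls were 166 and 179 of 20286 by DESeq2. Without that library they were 204 and 228 of 9196 by edgeR. gdf6a was not called by DESeq2 (adjusted p = 0.152). Over the 5 contrasts, 75 gene and contrast pairs were selected by size of change. Of these, 72 were still called without the library labelled Sws2-ablation and 68 by DESeq2.

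In efnb2a glia against fgf24 glia the calls were 2 higher and 0 lower of 5 tested ligands (median log2 fold change -0.55), 0 higher and 0 lower of 11 tested receptors and co-receptors (median log2 fold change 0.01), 0 higher and 0 lower of 8 tested Smads (median log2 fold change 0.01), 2 higher and 0 lower of 12 tested inhibitors and binding proteins (median log2 fold change 0.25) and 2 higher and 0 lower of 15 tested target genes (median log2 fold change 0.26), beside a median of 0.01 over all genes. bmp4 (log2 fold change 4.07 ± 0.44 SE) and gdf6a (log2 fold change 2.95 ± 0.30 SE), both Bmp-type ligand genes of the dorsal eye, and bambia, a decoy receptor gene (log2 fold change 1.79 ± 0.11 SE), were higher, as was ccn2a (log2 fold change 2.90 ± 0.25 SE). Over all genes of this contrast edgeR called 2.5% higher and 3.69% lower. At an unadjusted p under 0.05 edgeR had 2 receptors higher and 2 lower and 0 Smads, and DESeq2 called 0 of either list. The higher and lower calls of DESeq2 were 2 and 0 of 6 ligands, 0 and 0 of 11 receptors, 0 and 0 of 8 Smads, 1 and 0 of 14 inhibitors and 3 and 0 of 16 targets. Without the library labelled Sws2-ablation they were 2 and 1 of 6 ligands, 1 and 0 of 11 receptors, 0 and 0 of 8 Smads, 1 and 0 of 14 inhibitors and 3 and 0 of 17 targets, by edgeR. Over all genes the higher and lower calls were 155 and 258 of 20286 by DESeq2. Without that library they were 212 and 318 of 9196 by edgeR. bmp4 was thus higher in both rdh10a and efnb2a glia than in fgf24 glia, while bmpr1ba was higher in rdh10a glia and lower in efnb2a glia. The bmp4 levels were low, at 7.36 to 23.2 CPM in efnb2a glia and 0.478 to 1.104 CPM in fgf24 glia.

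In cycling cells against resting glia edgeR called 1 higher and 7 lower of 10 tested ligands (median log2 fold change -2.03), 2 higher and 4 lower of 16 tested receptors and co-receptors (median log2 fold change -0.68), 0 higher and 4 lower of 10 tested Smads (median log2 fold change -0.74), 2 higher and 8 lower of 17 tested inhibitors and binding proteins (median log2 fold change -1.26) and 2 higher and 9 lower of 20 tested target genes (median log2 fold change -0.89), beside a median of -0.11 over all genes. Over all genes of this contrast edgeR called 20% higher and 25.7% lower. inhbb, the gene of the activin B subunit, rose (log2 fold change 4.43 ± 0.34 SE), opposite to inhbaa and inhbab. Its levels in cycling cells were 54.2 CPM in Lws2-ablation, 66.7 CPM in the library labelled Sws2-ablation and 37.4 CPM in no ablation, against 4.58, 4.50 and 0.895 CPM in resting glia of these libraries. The type I activin receptor gene acvr1ba also rose (log2 fold change 1.63 ± 0.17 SE), and so did fstl1a, a follistatin-like gene (log2 fold change 3.17 ± 0.44 SE). msx1b had the largest rise of the targets (log2 fold change 2.74 ± 0.52 SE), at 1.71 to 2.93 CPM in cycling cells against 0.143 to 0.885 CPM in resting glia. mstnb, a myostatin gene, fell most among the ligands (log2 fold change -5.95 ± 0.98 SE), with 0 UMIs in cycling cells of 2 libraries. The largest falls of the other lists were those of the co-receptor gene rgma (log2 fold change -2.36 ± 0.30 SE), the inhibitory smad6b (log2 fold change -2.46 ± 0.31 SE), ltbp1, which encodes a latent Tgfb binding protein (log2 fold change -4.29 ± 0.52 SE), and ccn2a (log2 fold change -4.22 ± 0.29 SE). tgfb3 also fell (log2 fold change -3.95 ± 0.24 SE). The higher and lower calls of DESeq2 were 1 and 8 of 18 ligands, 1 and 5 of 19 receptors, 1 and 4 of 12 Smads, 2 and 8 of 24 inhibitors and 3 and 9 of 22 targets. Without the library labelled Sws2-ablation they were 1 and 8 of 14 ligands, 2 and 5 of 17 receptors, 0 and 4 of 10 Smads, 2 and 7 of 19 inhibitors and 3 and 8 of 20 targets, by edgeR. Over all genes the higher and lower calls were 2943 and 3665 of 23608 by DESeq2. Without that library they were 2668 and 3417 of 14608 by edgeR.

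In low-glial cells the calls were 0 higher and 5 lower of 10 tested ligands (median log2 fold change -0.93), 2 higher and 1 lower of 16 tested receptors and co-receptors (median log2 fold change -0.24), 0 higher and 0 lower of 10 tested Smads (median log2 fold change -0.34), 5 higher and 3 lower of 17 tested inhibitors and binding proteins (median log2 fold change -0.17) and 4 higher and 2 lower of 20 tested target genes (median log2 fold change -0.04), beside a median of 0.01 over all genes. The largest rises of the lists were those of neo1b (log2 fold change 2.09 ± 0.57 SE), the Bmp antagonist gene nog2 (log2 fold change 2.79 ± 0.60 SE) and gata2a (log2 fold change 2.65 ± 0.92 SE), which DESeq2 did not call (adjusted p = 0.0676), and the largest falls those of mstnb (log2 fold change -4.02 ± 0.85 SE), tgfbr1a (log2 fold change -1.32 ± 0.27 SE), ltbp1 (log2 fold change -2.03 ± 0.42 SE) and bambib (log2 fold change -1.41 ± 0.19 SE). The rises of neo1b, nog2 and gata2a rest on low levels, at 0.301 to 1.88, 1.35 to 4.13 and 0.602 to 1.13 CPM in low-glial cells. Resting glia had 0.107 to 0.364, 0 to 1.20 and 0.143 to 0.211 CPM. acvr1ba (log2 fold change 1.55 ± 0.17 SE) and fstl1a (log2 fold change 2.38 ± 0.45 SE) were higher and bmp2b (log2 fold change -1.81 ± 0.21 SE) lower. Over all genes of this contrast edgeR called 10.2% higher and 8.13% lower. For the Smads edgeR had 2 higher and 5 lower at an unadjusted p under 0.05. The higher and lower calls of DESeq2 were 1 and 6 of 16 ligands, 2 and 1 of 19 receptors, 1 and 0 of 12 Smads, 5 and 2 of 22 inhibitors and 3 and 2 of 21 targets. Without the library labelled Sws2-ablation they were 1 and 5 of 14 ligands, 2 and 1 of 17 receptors, 0 and 0 of 10 Smads, 5 and 2 of 19 inhibitors and 5 and 2 of 20 targets, by edgeR. Over all genes the higher and lower calls were 1346 and 1102 of 23608 by DESeq2. Without that library they were 1323 and 1126 of 14608 by edgeR.

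In neurons the calls were 1 higher and 5 lower of 10 tested ligands (median log2 fold change -2.38), 2 higher and 4 lower of 16 tested receptors and co-receptors (median log2 fold change 0.01), 1 higher and 5 lower of 10 tested Smads (median log2 fold change -1.32), 4 higher and 7 lower of 17 tested inhibitors and binding proteins (median log2 fold change -0.24) and 5 higher and 12 lower of 20 tested target genes (median log2 fold change -2.09), beside a median of 0.03 over all genes. The largest rises of the lists were those of gdf10b (log2 fold change 6.02 ± 0.78 SE), neo1b (log2 fold change 3.89 ± 0.47 SE), smad7 (log2 fold change 1.16 ± 0.18 SE), fstl5 (log2 fold change 5.20 ± 0.30 SE) and id4 (log2 fold change 4.73 ± 0.21 SE), the last opposite to id1 and id3. smad7 lost its call without the library labelled Sws2-ablation (log2 fold change 0.96). The rises of gdf10b and neo1b rest on low levels. gdf10b had 1.66 to 3.61 CPM in neurons, against 0 to 0.052 CPM in resting glia. neo1b had 2.25 to 6.62 CPM, against 0.107 to 0.364 CPM. Another entry carries the symbol neo1b, and its change is not given here. The largest falls were those of tgfb3 (log2 fold change -4.79 ± 0.27 SE), tgfbr1a (log2 fold change -3.66 ± 0.34 SE), smad6b (log2 fold change -3.71 ± 0.36 SE), ltbp1 (log2 fold change -5.44 ± 0.63 SE) and ccn1 (log2 fold change -3.97 ± 0.25 SE). The list calls also included the Bmp-responsive Smad genes smad1 (log2 fold change -3.07 ± 0.16 SE) and smad5 (log2 fold change -3.15 ± 0.18 SE), which were lower. Over all genes of this contrast edgeR called 21.7% higher and 23% lower. The higher and lower calls of DESeq2 were 4 and 8 of 20 ligands, 2 and 4 of 19 receptors, 2 and 5 of 12 Smads, 5 and 7 of 24 inhibitors and 7 and 11 of 22 targets. Without the library labelled Sws2-ablation they were 3 and 7 of 14 ligands, 2 and 4 of 17 receptors, 0 and 5 of 10 Smads, 4 and 7 of 19 inhibitors and 4 and 11 of 20 targets, by edgeR. Over all genes the higher and lower calls were 3763 and 3227 of 23608 by DESeq2. Without that library they were 3129 and 3303 of 14608 by edgeR.

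For 9 members with at least 50 CPM in some profile, the 5 genes with the most similar pattern were taken by Pearson's r of log2(CPM + 10) over 27 profiles (9 classes in 3 libraries). fsta did not reach this level. The profiles share libraries and cells, so r is a description only. rgmd and inhbab were among each other's nearest 5 of 5010 genes (r = 0.936), and rgmd and bmpr1ba likewise (r = 0.932). Nearest to bmpr1bb were smoc1, cav1, aldh1a3, col2a1a and si:ch73-59c19.1 (0.862 to 0.933), and aldh1a3, a retinoic acid synthesis gene, was in the lists of both bmpr1bb and bmpr1ba. fstb lay closest to gulp1a, rhbg, atp1a1b, slc3a2a and col15a1b (0.964 to 0.9704). id1 lay closest to her4.2, notch1b, nr2e1, eif4ebp3l and arl4aa (0.916 to 0.955), of which her4.2 and notch1b belong to the Notch pathway. For inhbaa the list was glud1a, gpt2l, prex2, cyp2p7 and BX663503.3, for id3 it was cdh2, klf6a, tpm3, tcea2 and tox3, and for rgmb it was tkta, rab6ba, tmeff1b, pbx1a and BX927184.1. Over the 18 profiles without the library labelled Sws2-ablation, 1 (id1) to 5 (bmpr1ba) of the 5 genes were shared with these lists, and 2 for fstb. rgmd stayed among the nearest 5 of bmpr1ba but left those of inhbab, and her4.2 stayed nearest to id1.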

How the data were processed

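Single-cell RNA sequencing was done on retinal cells described as sorted for gfap:GFP fluorescence, which persists in the progeny of Müller glia, with 10x v2 and v3 kits (which library used which is not given in the sources used here, nor is the number of larvae per library). The authors deposited raw UMI counts per gene and cell, made with Cell Ranger (version 2.1.1 in the submitters' processing notes, 3.0.2 in the matrix header) on GRCz11 with reporter sequences added. The deposited counts totalled 4.30e+07 to 7.51e+07 UMIs per library.

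Cells with at least 200 genes were kept. Gates used cells with 1000 or more UMIs, thinned to 1000. No doublet caller was run, but 38 to 229 cells per library passed both glia and neuron gates and entered neither class. Of the symbols listed, 8 were not matched. All members were named. Of each pathway list the 3 largest called changes in each direction were selected, of which the text names the largest and some others picked after their values were seen. Counts summed per library and class were tested with edgeR 4.0.16 (R 4.3.3, TMM, quasi-likelihood test, library as a block, Benjamini-Hochberg over all genes tested). DESeq2 1.42.0 was an alternative. Between conditions no test was possible with 1 library each, and CPM ratios carry exact conditional binomial intervals and levels exact Poisson intervals (both 95%), which cover counting error only. A count of 0 was given a floor of 3 UMIs. Python 3.11.15 was used otherwise. The edgeR and ratio steps were tested on simulated data. The members and gene lists were chosen with earlier results of these data known, and divisions by glia UMIs, ratios within groups of glia, subsets with at most 2 glia UMIs, and list counts and likeness without the library labelled Sws2-ablation were added after the data were seen.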

Additional observations from a re-analysis of the deposited data

Results flagged for a closer look

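The fsta ratio of Lws2-ablation to no ablation ran in opposite directions in different classes of cells, and this difference between classes was not tested. It was 3.04 in resting glia, 0.528 in low-glial cells and 0.472 in cycling cells. With stricter gates the ratio in cycling cells was 1.05, which turns its direction. The resting glia value rests on 71 UMIs in Lws2-ablation and 34 in no ablation.

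The id1 ratios differed both between classes and between the ablation libraries, and neither difference was tested. For Lws2-ablation against no ablation, id1 was at 0.599 in resting glia, 0.715 in low-glial cells and 1.18 in cycling cells. For the library labelled Sws2-ablation against no ablation, it was at 1.36 in resting glia and 1.05 in low-glial cells. The low-glial value ran between 0.961 and 1.17 over the alternatives, so its side of 1 changed with the processing. Within efnb2a glia both ratios of id1 were below 1 (0.389 for Lws2-ablation, while the library labelled Sws2-ablation was at 0.899).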

How the results depend on the processing

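Conditions could not be paired, since each has 1 library. Classes of cells were paired through the library block. Without the library block edgeR called 1626 genes in low-glial cells, 85 in rdh10a glia and 121 in efnb2a glia (2545, 437 and 538 with it), and inhbab lost its call in low-glial cells (adjusted p = 0.0856). The log2 fold change of id1 in cycling cells (0.04) was -0.26 without TMM, -0.03 with no filter on low counts, -0.33 with stricter gates, -0.06 without the block, -0.31 to 0.29 with 1 library left out and -0.03 without the 5% of cells with most UMIs. That of id3 in low-glial cells (-0.03) was -0.13 to 0.04 with 1 library left out (0.00 without the library labelled Sws2-ablation) and 0.01 without the 5%. In rdh10a glia, id1 was at -0.03 (without no ablation) to 0.35 and id3 at -0.50 to 0.00 (without the library labelled Sws2-ablation) with 1 library left out. rgmb in neurons was called without TMM and without no ablation (1.07). Members past 2-fold under TMM-scaled totals numbered 4 in Lws2-ablation, with 3 in the library labelled Sws2-ablation for resting glia (2 and 1 otherwise) and 5 in Lws2-ablation for low-glial cells (3 otherwise). For the library labelled Sws2-ablation they numbered 2 with looser and 0 with stricter gates in resting glia, and 1 with stricter gates and 1 at 50 or more UMIs in low-glial cells. For Lws2-ablation in cycling cells they numbered 4 under TMM-scaled totals and 4 with looser gates (6 otherwise). For Lws2-ablation they numbered 5 without the 5% of cells with most UMIs in low-glial cells, and in cycling cells 2 with stricter gates, 3 without the 5% and 1 after thinning, where the library labelled Sws2-ablation also had 1. After thinning, 2 members could be measured in Lws2-ablation, against 3 in the other ablation library, and the 1 past 2-fold was higher in each, with 0 lower. In cycling cells the fsta ratio of Lws2-ablation was 1.05 with stricter gates, and without the 5% the fstb ratio was 1.33 in Lws2-ablation, with 1.47 in the library labelled Sws2-ablation. The cause was not tested. Low UMI totals limit fsta in resting glia and bmpr1bb in efnb2a glia, low-glial and cycling cells.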
